A study of Mus musculus with 19 samples.

Results

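The early response and dissociation stress genes described here are 38 genes named by symbol: immediate early transcription factors, other early response genes, inhibitors of signalling that are induced with them, and heat shock genes. The rule lists them by name and sets no threshold on their values, but the list was drawn up with earlier results of these data known. All 38 symbols were found once each among the 26221 rows of the deposited normalized table. All 38 also passed the filter on low counts and were among the 13340 genes tested.

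The libraries are bulk RNA sequencing of sorted nasal epithelial cells of naive ChAT(BAC)-eGFP mice, a transgenic line in which regulatory sequence of Chat, the gene of the acetylcholine-synthesizing enzyme, drives enhanced green fluorescent protein (eGFP). All 3 groups came from tissue taken apart with dispase and then papain, and from CD45-negative, EpCAM-positive cells sorted into TCL buffer with RNAprotect. FSClow (9 libraries) holds eGFP-positive cells of low forward and side scatter, FSChi (5 libraries) eGFP-positive cells of high scatter, and EpCAM (5 libraries) eGFP-negative epithelial cells, for which exclusion of dead cells with propidium iodide is stated. No group was left undigested, so the level of these genes before dissociation was not measured. The labels give neither age nor sex, nor do they state that each library is a separate animal. P-values therefore measure the spread among these libraries alone, and that spread may be technical.

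As background, immediate early genes are transcribed within minutes of a stimulus from transcription factors already present in the cell, such as SRF at CArG boxes, CREB at cyclic AMP response elements and STAT factors at their own elements. Many of their products are transcription factors (FOS and JUN dimers, EGR, NR4A and KLF proteins), and others, such as the DUSP phosphatases and SOCS3, shut the signal down again. Enzymatic digestion and sorting are known to induce this programme and the heat shock programme in many tissues, and the same genes are also switched on by activity in the living cell.

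Upstream sequences were taken from RefSeq on GRCm38.p6. Those of Sgk1, with 6 annotated starts, are not printed. Shown are those of Fosb, Egr2, Socs3 and Hspb1, members with large differences between groups. Each is printed 5′ to 3′ in the direction of the gene, lies before the transcription start and outside every exon of the GENCODE vM21 annotation, and carries in capitals the matches described after it.
Fosb, chr7:19310052-19310295, minus strand: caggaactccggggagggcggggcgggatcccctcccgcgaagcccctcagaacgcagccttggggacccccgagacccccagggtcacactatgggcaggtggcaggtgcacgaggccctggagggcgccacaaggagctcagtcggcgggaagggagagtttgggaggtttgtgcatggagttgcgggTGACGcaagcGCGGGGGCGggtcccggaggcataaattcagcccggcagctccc
Egr2, chr10:67537619-67537868, plus strand, 1 of 5 annotated starts: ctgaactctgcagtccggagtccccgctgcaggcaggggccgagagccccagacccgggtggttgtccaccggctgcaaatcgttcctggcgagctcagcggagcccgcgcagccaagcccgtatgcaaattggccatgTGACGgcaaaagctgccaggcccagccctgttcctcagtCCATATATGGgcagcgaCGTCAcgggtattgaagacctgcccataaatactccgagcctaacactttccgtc
Socs3, chr11:117969452-117969616, minus strand: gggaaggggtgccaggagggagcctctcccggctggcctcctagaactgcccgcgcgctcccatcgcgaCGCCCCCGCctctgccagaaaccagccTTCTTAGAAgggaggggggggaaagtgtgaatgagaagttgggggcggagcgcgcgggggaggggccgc
Hspb1, chr5:135887669-135887918, plus strand: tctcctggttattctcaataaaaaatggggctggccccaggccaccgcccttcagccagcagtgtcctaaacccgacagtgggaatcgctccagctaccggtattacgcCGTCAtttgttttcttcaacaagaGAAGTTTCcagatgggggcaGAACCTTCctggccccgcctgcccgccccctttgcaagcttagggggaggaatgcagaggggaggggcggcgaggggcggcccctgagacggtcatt

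In these windows the capitals mark, for Fosb, TGACG (the short site bound by CREB family factors) and GCGGGGGCG (the site of EGR proteins), and, for Egr2, a CArG box with TGACG on each strand beside it. Of the Egr2 windows not printed, that at chr10:67535249-67535474 held none of the motifs searched. That at chr10:67537316-67537565 held a CArG box only. Socs3 carried TTCNNNGAA, the spacing bound by STAT factors, and an EGR site on the opposite strand, and Hspb1 carried 2 matches to GAANNTTC, the core of a heat shock element, with TGACG on the opposite strand. Across the 250 bases before each start, on both strands, 32 of the 38 members had an entry in the table and 25 held at least 1 of the 6 motifs searched. The share of all genes with at least 1 of the 6 was not computed, so the count of 25 has no background. No 2 different motifs overlapped. TGACG was found in 19 of 32 members (59.4%) and in 19.8% of the 27025 genes of the table. The EGR site was found in 7 members (21.9%; 2.9% of all genes) and the CArG box in 3, Egr2, Dusp5 and Zfp36 (9.4%; 1.6% of all). GAANNTTC was found in 6 (18.8%; 7.7% of all), which were Fosl2, Jun, Sgk1, Hspa1a, Hspa1b and Hspb1. TTCNNNGAA was found in 3 (9.4%; 8.1% of all) and TGANTCA, the site of FOS and JUN dimers, in 1, Csrnp1 (3.1%; 7.8% of all). A match is a stretch of letters, not a measured binding site. No sequence entry was held for Fosl1, Egr1, Egr3, Myc, Ier2 and Hsp90aa1.

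Libraries held 1348428 to 7477695 assigned counts, and levels are given as CPM (counts scaled to a common library size, by trimmed means of M-values). The summed level of 8 tuft cell markers (Chat, Trpm5, Pou2f3 and others; tuft cells are the chemosensory cells that eGFP marks) ran from 4995 to 8206 CPM in FSClow, 4231 to 7911 in FSChi and 7.30 to 20.6 in EpCAM. Markers of other epithelial cells were not evenly spread. The sum over 6 basal cell markers was 2.15 to 114 CPM in FSClow, 31.0 to 1770.0 in FSChi and 1654 to 4995 in EpCAM. In the same order, the sum over 6 secretory markers was 21.9 to 321, 443 to 13390.5 and 7978 to 22006. It was 46.2 to 245, 225 to 3497 and 2622 to 4610 for olfactory neuron markers, and 124 to 410, 195 to 1272 and 736 to 2241 for sustentacular markers. For ionocyte markers it was 4.46 to 25.1, 2.41 to 915 and 1626 to 4062, and for ciliated markers 620 to 2974, 749 to 1645 and 862 to 1257. Over 8 leukocyte markers the sums were 6.88 to 61.1, 8.15 to 597 and 417 to 3340.2 CPM, with Cd3e at 0 throughout and Cd52 at 0 in FSChi. In EpCAM 1 gene, Lyz2, made nearly all of that sum (mean 1718 CPM, with every other marker of the list under 1 CPM). Ptprc, which encodes CD45, went the other way, with means of 12.5 CPM in FSClow, 6.89 in FSChi and 0 in EpCAM, and was called higher in both eGFP-positive groups than in EpCAM (edgeR adjusted p = 7.6e-07 and 1.82e-05). Of the 19 columns of the count table, 14 correlated best with the single-library file of the same name. The other 5 (FSChi 3, 4 and 5 and EpCAM 1 and 2) correlated best with another file of their own group, so their replicate numbers may be exchanged within the group.

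The library FSClow 7 stood apart from the other 8 FSClow libraries in these genes. The mean level of the 38 members, as log2(CPM + 1), was 4.31 in FSClow 7 and 6.27 to 7.30 in the other FSClow libraries, against 6.08 to 6.51 in FSChi and 6.22 to 7.10 in EpCAM. FSClow 7 had the lowest FSClow value for 34 of the 38 members: Nr4a1, an orphan nuclear receptor gene, was at 7.25 CPM against 776 to 2594, and Atf3, a stress-induced transcription factor gene, at 41.5 against 1376 to 4698. Fosl1, Nr4a2, Nr4a3 and Klf2 had no counts there, which allows a level of up to 1.21 CPM each (3 counts; counting error only). Its tuft cell markers were present, with a summed level of 4995 CPM, the lowest of the 9 FSClow libraries (others 6087 to 8206), and its total of 2151281 counts was also the lowest of the 9, while its 14541 detected genes exceeded those of FSClow 1 (14523). Results are given from all 19 libraries, with the values without FSClow 7 where the call differs. The part of depth or of cell makeup in the low values of FSClow 7 was not tested.

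**Figure D1:**
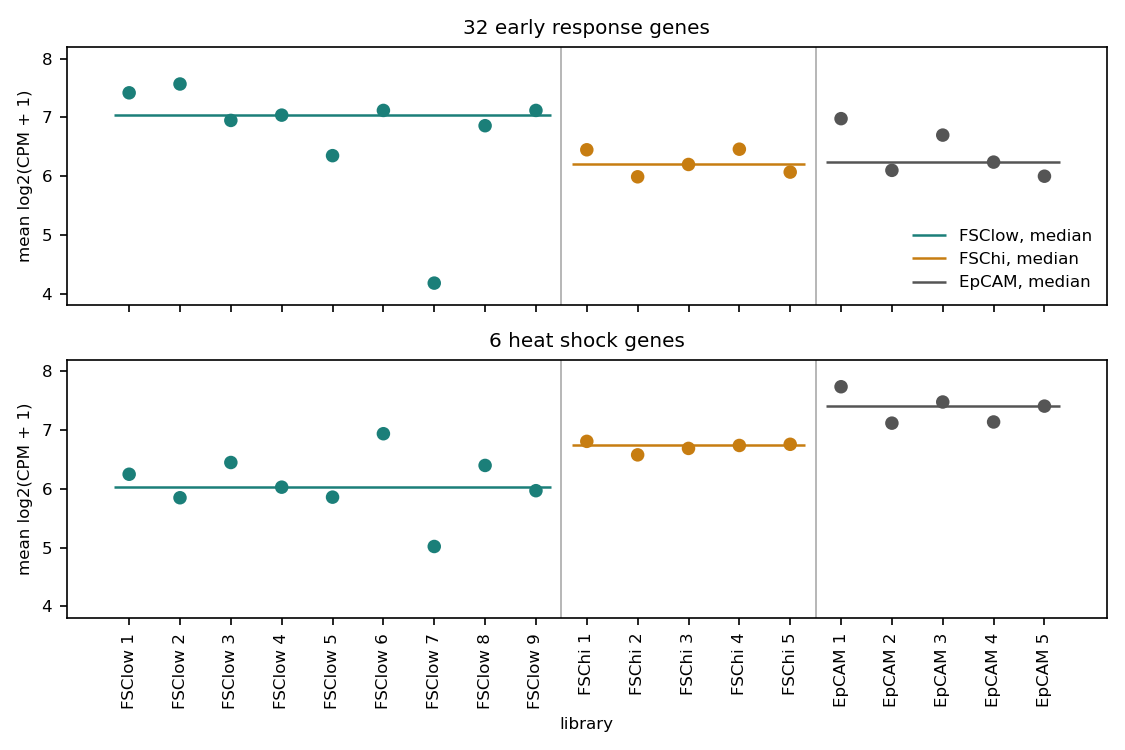
Mean log2(CPM + 1) of the 32 early response genes (upper panel) and the 6 heat shock genes (lower panel) in each of the 19 libraries; points are libraries and lines are group medians. For the 32 genes FSClow 7 lies at 4.18, with the other FSClow libraries at 6.35 to 7.57, and for the heat shock genes every EpCAM library (7.12 to 7.74) lies above every FSClow library (5.02 to 6.94).

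Set against EpCAM, the FSClow cells had higher levels of 13 of the 38 members and lower levels of 8. Of the 13, 3 belong to the EGR, 2 to the NR4A and 2 to the FOS family of transcription factors, and those that were lower included Socs3, Sgk1, Myc and the heat shock gene Hspb1. Over all 13340 genes tested, 22.0% were higher and 23.1% lower (45.1% either) in this comparison by the same rule (edgeR, adjusted p under 0.05), against 34.2% and 21.1% of the members. The balance turned with the authors' size factors, where 11 members were higher and 12 lower (15.8% and 28.3% of all genes): Fos and Hsp90aa1 were no longer called, and Jun, Klf6, Dusp1 and Dnajb1 were lower as well. DESeq2 gave 12 higher and 11 lower (2404 and 3712 of all 13340 genes). The median log2 fold change was 0.42 over the members and 0.05 over all genes. In FSChi against EpCAM 2 members were higher (5.3%, beside 13.5% of all genes) and 8 lower (21.1%, beside 12.2%; 25.6% of all genes in either direction), with medians of -0.24 and -0.02. With the authors' size factors, RLE scaling or DESeq2, 11 members were lower in this comparison (15.1% of all genes with the authors' size factors). In FSChi against FSClow 2 members were higher (5.3%, beside 15.5% of all genes) and 9 lower (23.7%, beside 9.30%; 24.8% of all genes in either direction), with medians of -0.84 and -0.01. The comparisons share libraries pairwise and are not independent. Of the 38 members 25 were called in at least 1 comparison, and 13 in none. Leaving out 1 library moved 3 of these counts by over 1.5 times. The members lower in FSChi than in EpCAM were 3 without FSChi 2, 4 without FSChi 5 or EpCAM 1, and 5 without FSChi 3 or EpCAM 3. Those lower in FSChi than in FSClow were 3 without FSChi 5, 5 without any 1 of FSChi 3, FSChi 4, FSClow 2 and FSClow 4, and 17 without FSClow 7, and those higher were 4 without FSClow 3. The share of higher genes among all calls was 48.7% in FSClow against EpCAM and 38.2% with RLE scaling or 35.8% with the authors' size factors, which moved the median of all genes from 0.05 to -0.14 and -0.17. In FSChi against EpCAM it was 52.5%, and 41.2% with the authors' size factors, which moved that median from -0.02 to -0.18.

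Without FSClow 7, no call was lost and 15 were gained. Of the 13390 genes then tested in FSClow against EpCAM, 2543 were higher and 3340 (24.9%) lower, with 43.9% called in either direction. Among the members 16 were higher and 9 lower there. Atf3, Nr4a1 and Csrnp1 joined those that were higher and Klf6 those that were lower. Klf6 was also called lower without several other single libraries, such as FSChi 1 or FSClow 2. In FSChi against FSClow the members that were lower went from 9 to 17 (7.75% of all genes), with Fos, Fosl2, Jund, Atf3, Nr4a1, Nr4a2, Csrnp1 and Zfp36 added and 2 still higher (15.4% of all). In FSChi against EpCAM 3 were higher and 10 lower (12.4% and 13.6% of all), with Nr4a3, Ier3 and Hspb1 added. Ier3 was also gained there without FSChi 4 or EpCAM 5, and Hspb1 without FSChi 1 or FSClow 4 or 6. Fos was also gained in FSChi against FSClow without FSClow 8. In bulk libraries, fewer cells that express a gene and less RNA of it per cell cannot be told apart.

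**Figure D2:**
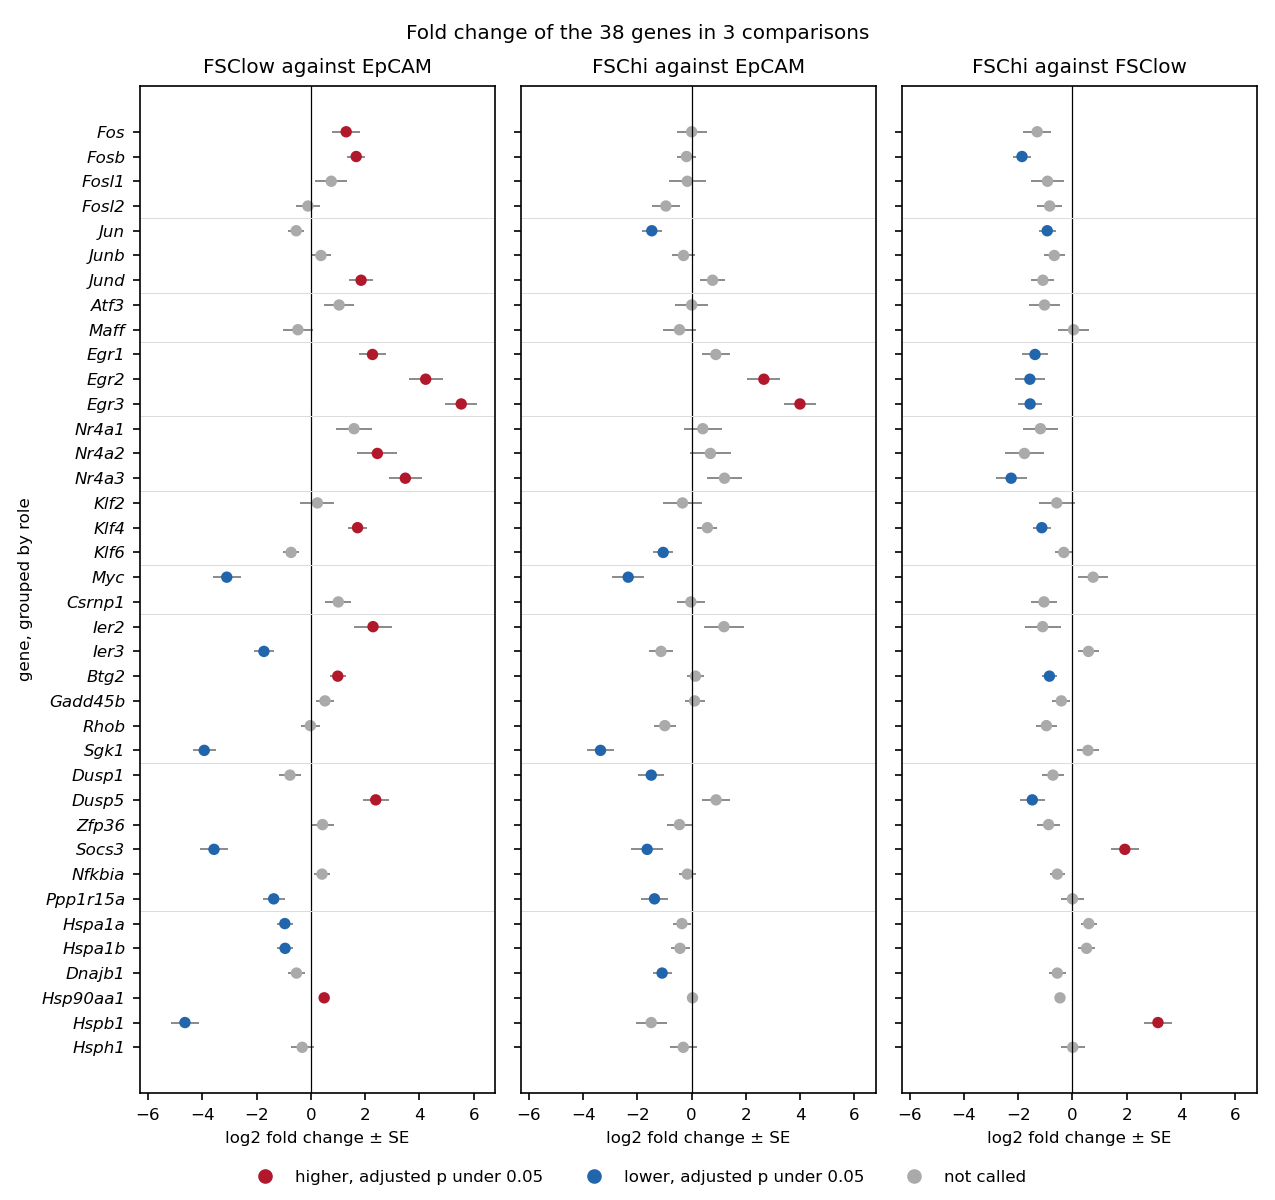
Log2 fold change (horizontal axis, ± SE from the edgeR fit) of each of the 38 genes in the 3 comparisons, ordered by role; colour marks genes higher or lower at an adjusted p under 0.05. Egr3 lies farthest to the right in FSClow against EpCAM (5.54) and Hspb1 farthest to the left (-4.64).

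**Figure D3:**
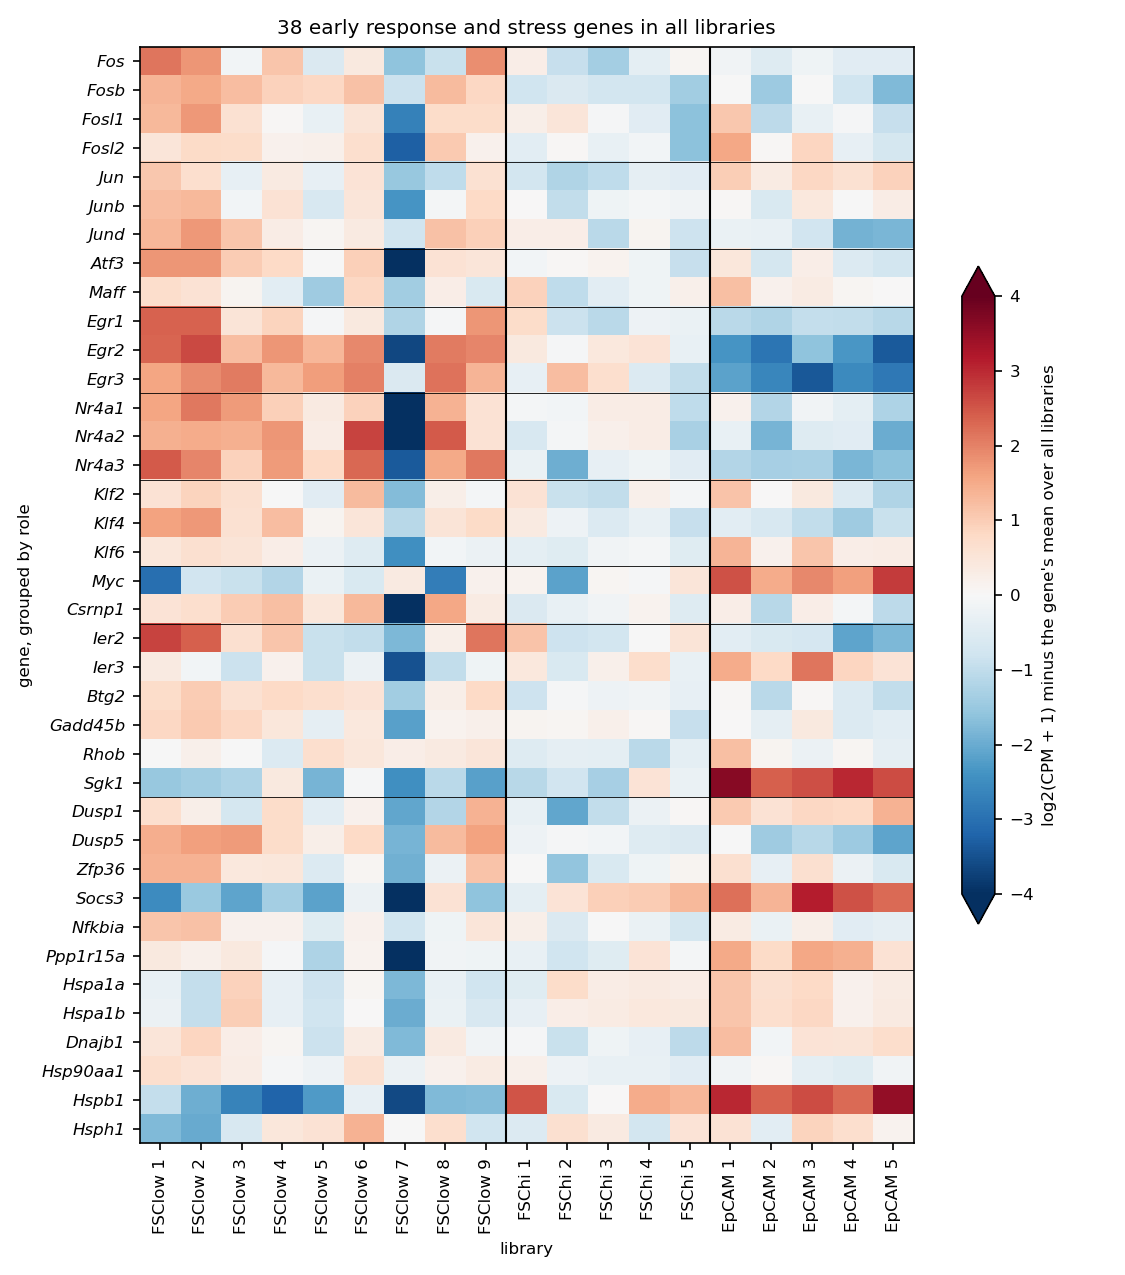
Log2(CPM + 1) of each gene in each library minus its mean over the 19 libraries, with genes as rows grouped by role and libraries as columns. The column of FSClow 7 is low for 34 of 38 genes among FSClow libraries, and the rows of Sgk1, Socs3, Hspb1 and Myc are high in the 5 EpCAM libraries.

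Among the FOS genes, Fosb, whose protein pairs with JUN proteins to form the transcription factor AP-1 (Entrez gene 14282, chr7:19302696-19310118 of GRCm38.p6), had levels in FSClow of 217 CPM in FSClow 7, a median of 898 and a highest value of 1131. In FSChi 1 to 5 its levels were 227, 266, 236, 235 and 151 CPM, and in EpCAM 1 to 5 392, 143, 395, 225 and 115 CPM. The 8 FSClow libraries other than FSClow 7 were all above every FSChi and EpCAM library, and FSClow 7 lay within the range of both. The log2 fold change was 1.67 ± 0.33 SE (adjusted p in edgeR = 0.000178) in FSClow against EpCAM and -1.86 ± 0.33 SE (adjusted p in edgeR = 0.000191) in FSChi against FSClow. FSChi against EpCAM gave -0.19 ± 0.35 SE (adjusted p in edgeR = 0.742) and was not called.

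Fos itself (Entrez gene 14281, chr12:85473890-85477274), the founding early gene of the family, differed widely among the FSClow libraries. It ran from 962 CPM in FSClow 7 over a median of 3847 to 12934 in FSClow 1, with 3474, 1519, 1140.2, 2229 and 3066 CPM in FSChi 1 to 5 and 2622, 2011, 2589, 2104 and 2113 in EpCAM 1 to 5. Its 6 highest FSClow libraries were above all EpCAM libraries and the other 3 (FSClow 5, 7 and 8) below all of them. The log2 fold change in FSClow against EpCAM was 1.30 ± 0.51 SE (adjusted p in edgeR = 0.0423), a call that held in the fits without FSChi 2 or FSClow 3, 5, 6, 7 or 8 and was lost in the other 13 fits that left out 1 library (edgeR adjusted p 0.0551 to 0.108). It was also lost with RLE scaling, at 1.12 (edgeR adjusted p = 0.0831), with upper-quartile scaling, at 1.24 (edgeR adjusted p = 0.0588), and with the authors' size factors, at 1.04 (edgeR adjusted p = 0.0926). FSChi against FSClow gave -1.30 ± 0.51 SE (adjusted p in edgeR = 0.067) with all libraries and -1.40 (edgeR adjusted p = 0.028) without FSClow 7, and was called in DESeq2 (-1.23, adjusted p = 0.0298). Fosl1 and Fosl2, which encode FRA-1 and FRA-2, were called in no comparison, with FSClow ranges of 0 to 20.5 and 1.61 to 51.4 CPM. Without FSClow 7, Fosl2 was lower in FSChi than in FSClow, -0.97 (edgeR adjusted p = 0.048).

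The JUN genes, which encode the partners of the FOS proteins, did not move alike. Jun (Entrez gene 16476, chr4:95049036-95052222) was at 730.1, 533, 604, 949.7 and 880.0 CPM in FSChi 1 to 5 and 2404, 1522, 2157, 1861 and 2325 in EpCAM 1 to 5, and in FSClow ran from 427 over a median of 1578 to 2566. All 5 FSChi libraries were below all EpCAM libraries, whereas the FSClow range spanned both groups. Jun was lower in FSChi than in EpCAM by a log2 fold change of -1.47 ± 0.36 SE (adjusted p in edgeR = 0.00369), and lower than in FSClow by -0.93 ± 0.32 SE (adjusted p in edgeR = 0.036). The second call was kept without FSChi 4, FSClow 3, 7 or 8 or any 1 EpCAM library and lost in the other 10 left-out fits (edgeR adjusted p 0.0524 to 0.0929). FSClow against EpCAM gave -0.54 ± 0.30 SE (adjusted p in edgeR = 0.155), not called, but was called lower with the authors' size factors (-0.78, edgeR adjusted p = 0.0329) and in DESeq2 (-0.73, adjusted p = 0.0493). Jund, by contrast, ran from 6.84 over 25.7 to 44.7 CPM in FSClow and from 2.65 to 10.4 in EpCAM, overlapping only through FSClow 7, with a log2 fold change of 1.85 ± 0.43 SE (adjusted p in edgeR = 0.00108). Junb was not called in any comparison (FSClow 182 to 2308 CPM, FSChi 468 to 943, EpCAM 609 to 1242). Atf3, an AP-1 partner induced by stress, ran from 41.5 to 4698 CPM in FSClow and 827 to 1897 in EpCAM and was not called with all libraries, 1.04 ± 0.56 SE (adjusted p in edgeR = 0.141). Without FSClow 7 it was higher in FSClow than in EpCAM, 1.12 (edgeR adjusted p = 0.00379), and lower in FSChi than in FSClow, -1.17 (edgeR adjusted p = 0.00612). Maff, a small MAF factor gene, stayed at 0.358 to 5.45 CPM in FSClow and at most 7.46 elsewhere and was not called.

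All 3 EGR zinc finger genes were higher in FSClow than in EpCAM (22.0% of all genes were), and Egr3 and Egr2 had the largest positive fold changes of the 38 in that comparison. Egr3 (Entrez gene 13655, chr14:70077317-70082613) had levels of 1.37, 0.713, 0, 0.779 and 0.452 CPM in EpCAM 1 to 5, 7.29, 23.3, 15.6, 6.16 and 4.25 in FSChi 1 to 5, and from 6.04 over a median of 31.9 to 46.3 in FSClow. Every eGFP-positive library was above every EpCAM library, where the gene was at or near the limit of detection (0 counts in EpCAM 3 allows up to 0.56 CPM). The log2 fold change was 5.54 ± 0.59 SE (adjusted p in edgeR = 3.86e-08) in FSClow and 3.99 ± 0.60 SE (adjusted p in edgeR = 2.5e-05) in FSChi against EpCAM, and -1.56 ± 0.45 SE (adjusted p in edgeR = 0.0122) in FSChi against FSClow, where FSClow 7 alone lay within the FSChi range.

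Egr2 (Entrez gene 13654, chr10:67534469-67542188) followed the same order, with 37.9, 25.2, 63.5, 38.8 and 18.4 CPM in EpCAM 1 to 5 and 262, 189.6, 263, 287 and 161 in FSChi 1 to 5. In FSClow it was at 14.9 CPM in FSClow 7, below all EpCAM libraries, and at a median of 747 and a highest value of 1226. The log2 fold changes against EpCAM were 4.23 ± 0.63 SE (adjusted p in edgeR = 1.01e-05) in FSClow and 2.66 ± 0.61 SE (adjusted p in edgeR = 0.00279) in FSChi. The difference of FSChi from FSClow, -1.57 ± 0.54 SE (adjusted p in edgeR = 0.0376), was kept only without FSClow 3, 7 or 9 or EpCAM 2, 3 or 5 and lost in 13 left-out fits (edgeR adjusted p 0.0512 to 0.1). Without FSClow 7 it was -1.70 (edgeR adjusted p = 0.000114).

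Egr1 (Entrez gene 13653, chr18:34861207-34864956), the family member usually used as an activity marker, had a narrow range in EpCAM of 401 to 469 CPM. In FSChi 1 to 5 it was at 1535, 509, 437, 797 and 766 CPM, and in FSClow it ran from 399 over a median of 1321 to 4736. FSClow 7 was the only FSClow library not above all EpCAM libraries. The log2 fold change in FSClow against EpCAM was 2.27 ± 0.50 SE (adjusted p in edgeR = 0.000729). FSChi against EpCAM gave 0.89 ± 0.51 SE (adjusted p in edgeR = 0.221), not called, and FSChi against FSClow -1.38 ± 0.48 SE (adjusted p in edgeR = 0.0381), a call kept without FSChi 1, FSClow 3, 5, 6, 7 or 8 or EpCAM 2 or 5 and lost in 11 left-out fits (edgeR adjusted p 0.0516 to 0.102) and with RLE scaling (edgeR adjusted p = 0.052).

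**Figure D4:**
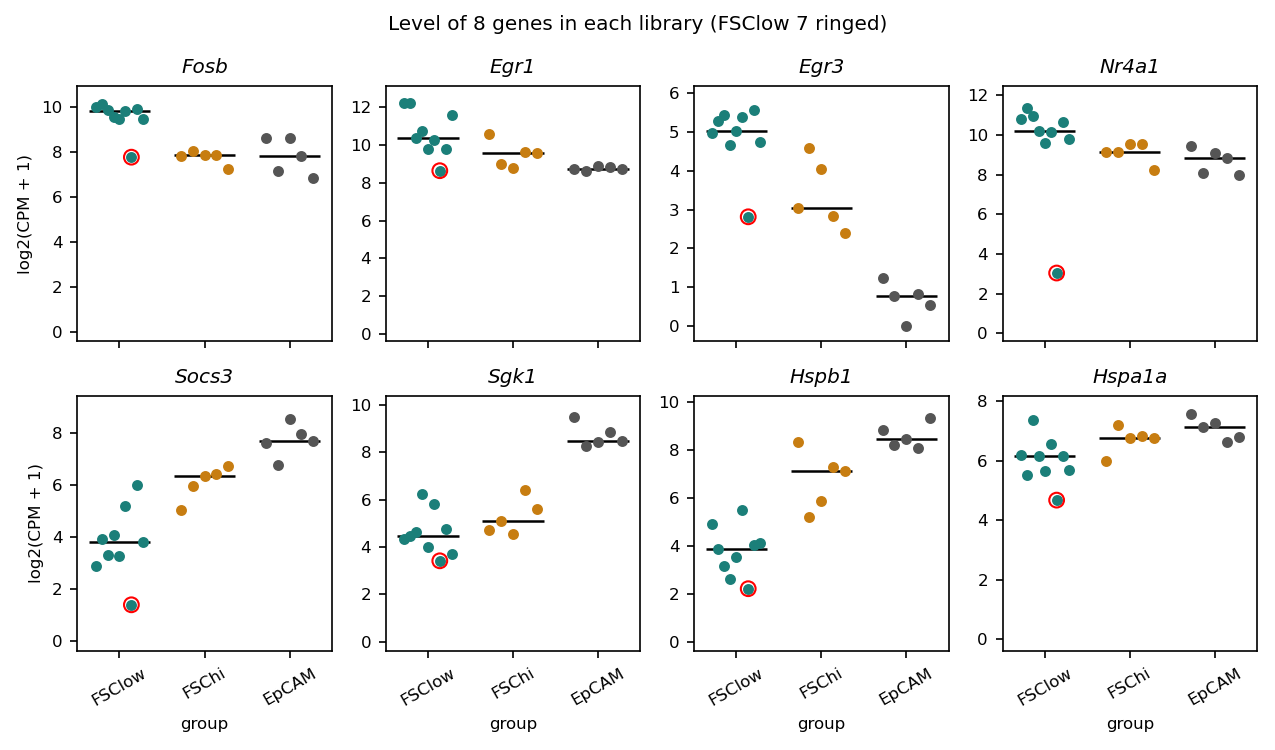
Log2(CPM + 1) of 8 genes in each library of the 3 groups, with points for libraries, lines for group medians and a red ring on FSClow 7. Egr3 separates the eGFP-positive from the EpCAM libraries without overlap, Socs3 and Sgk1 do so in the opposite direction, and FSClow 7 lies far below the other FSClow libraries for Nr4a1.

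The NR4A genes encode orphan nuclear receptors whose activity is set by their own abundance. Nr4a3 (Entrez gene 18124, chr4:48045078-48086447) was at 3.53, 3.09, 3.18, 1.87 and 2.26 CPM in EpCAM 1 to 5 and 7.52, 1.61, 7.12, 8.03 and 6.38 in FSChi 1 to 5, and in FSClow ran from 0 in FSClow 7 over a median of 32.1 to 55.0. The other 8 FSClow libraries were above all libraries of both groups. The log2 fold change was 3.48 ± 0.61 SE (adjusted p in edgeR = 4.75e-05) in FSClow against EpCAM and -2.26 ± 0.57 SE (adjusted p in edgeR = 0.00479) in FSChi against FSClow. Nr4a2 was at 10.4 to 35.9 CPM in EpCAM, 17.4 to 54.3 in FSChi and 0 to 294 in FSClow, higher in FSClow than in EpCAM by 2.45 ± 0.74 SE (adjusted p in edgeR = 0.0109). Nr4a1 was not called with all libraries, 1.59 ± 0.66 SE (adjusted p in edgeR = 0.0571) in FSClow against EpCAM. Without FSClow 7 it was higher in FSClow, 1.67 (edgeR adjusted p = 0.000147), and lower in FSChi than in FSClow, -1.32 (edgeR adjusted p = 0.00338).

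Of the Krüppel-like factors, Klf4, which acts in epithelial differentiation (Entrez gene 16600, chr4:55527137-55532475), ran from 34.2 CPM in FSClow 7 over a median of 117 to 252 in FSClow, with 97.3, 65.1, 51.9, 60.9 and 39.3 in FSChi 1 to 5 and 56.3, 48.0, 37.6, 27.4 and 40.5 in EpCAM 1 to 5. The FSClow libraries other than FSClow 7 were all above the EpCAM libraries. Its log2 fold change was 1.72 ± 0.35 SE (adjusted p in edgeR = 0.000235) in FSClow against EpCAM and -1.13 ± 0.34 SE (adjusted p in edgeR = 0.0156) in FSChi against FSClow, the latter lost without FSChi 5 (edgeR adjusted p = 0.061). Klf6 was lower in FSChi (272 to 364 CPM) than in EpCAM (434 to 992 CPM) by -1.05 ± 0.37 SE (adjusted p in edgeR = 0.0373), without overlap. This call was lost without FSChi 1, 2 or 5 or EpCAM 1 or 3 (edgeR adjusted p 0.0539 to 0.0956). FSClow (68.8 to 602 CPM) against EpCAM gave -0.73 ± 0.31 SE for Klf6 (adjusted p in edgeR = 0.0617), not called. It was called lower there without FSChi 1, 3, 4 or 5, FSClow 1, 2, 3, 4 or 7 or EpCAM 2 or 4 (edgeR adjusted p 0.0211 to 0.0491). RLE scaling, upper-quartile scaling, the authors' size factors and DESeq2 also called it lower (adjusted p 0.0119 to 0.0453). Klf2 had few counts, with at most 6.96 CPM in any library, and was not called.

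Myc, a transcription factor gene of growing and dividing cells (Entrez gene 17869, chr15:61985341-61990361), was lower in both eGFP-positive groups than in EpCAM. Its levels were 46.1, 21.6, 29.2, 24.0 and 54.4 CPM in EpCAM 1 to 5, 7.76, 0.804, 7.53, 6.72 and 10.3 in FSChi 1 to 5 and 0 (FSClow 1) to 9.26 (FSClow 7) in FSClow, with a median of 3.75. All 14 eGFP-positive libraries were below all 5 EpCAM libraries, and the log2 fold changes were -3.10 ± 0.52 SE (adjusted p in edgeR = 2.41e-05) in FSClow and -2.34 ± 0.60 SE (adjusted p in edgeR = 0.00595) in FSChi. Myc was the 1 member that was highest in FSClow 7 among FSClow libraries. Csrnp1, a nuclear protein gene induced by AXIN1, was not called with all libraries (FSClow 3.22 to 193 CPM, EpCAM 29.9 to 79.7). Without FSClow 7 it was higher in FSClow than in EpCAM, 1.09 (edgeR adjusted p = 0.00198), and lower in FSChi than in FSClow, -1.18 (edgeR adjusted p = 0.00267).

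Among other early response genes, Sgk1, which encodes a kinase induced by serum, glucocorticoids and osmotic stress and acting on the epithelial sodium channel (Entrez gene 20393, chr10:21882184-21999903), had levels of 722, 304, 348, 463 and 353 CPM in EpCAM 1 to 5. It was at 25.6, 32.9, 22.2, 84.0 and 47.5 CPM in FSChi 1 to 5 and at 9.66 to 75.4 in FSClow, with a median of 21.2. No eGFP-positive library reached the lowest EpCAM library, 304 CPM. FSClow against EpCAM gave a log2 fold change of -3.93 ± 0.42 SE (adjusted p in edgeR = 8.58e-08) and FSChi against EpCAM -3.36 ± 0.51 SE (adjusted p in edgeR = 4.33e-05), while FSChi against FSClow gave 0.57 ± 0.42 SE (adjusted p in edgeR = 0.351), not called.

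Ier2, a nuclear early response gene, was at 353, 306, 293, 108 and 135 CPM in EpCAM 1 to 5 and ranged from 134 over 737 to 3053 in FSClow, overlapping through FSClow 5, 6 and 7. Its log2 fold change in FSClow against EpCAM was 2.29 ± 0.70 SE (adjusted p in edgeR = 0.012). Ier3, which modulates survival signalling, went the other way: its FSClow libraries (5.23 to 88.2 CPM) were all below the EpCAM libraries (99.4 to 306 CPM), by -1.73 ± 0.38 SE (adjusted p in edgeR = 0.00066). FSChi against EpCAM gave -1.13 ± 0.45 SE for Ier3 (adjusted p in edgeR = 0.0647), not called, and was called with RLE scaling, the authors' size factors and DESeq2 (adjusted p 0.0229 to 0.0452). Btg2, an antiproliferative gene, was higher in FSClow (345 CPM in FSClow 7, median 1459, highest 1854) than in EpCAM (435 to 941 CPM) by 0.99 ± 0.29 SE (adjusted p in edgeR = 0.00675), and lower in FSChi (512 to 891 CPM) than in FSClow by -0.85 ± 0.29 SE (adjusted p in edgeR = 0.0316). The second Btg2 call was lost without any 1 of FSChi 1, 3, 4 and 5 and FSClow 2, 4 and 5 (edgeR adjusted p 0.054 to 0.101). Gadd45b, a stress sensor gene (FSClow 15.3 to 153 CPM, FSChi 37.9 to 83.3, EpCAM 49.5 to 95.8), and Rhob, the gene of an early induced GTPase, were not called. All 5 FSChi libraries were below all EpCAM libraries for Rhob (2.05 to 4.02 and 4.07 to 13.9 CPM), with -0.99 ± 0.41 SE (adjusted p in edgeR = 0.0785). With RLE scaling, the authors' size factors and DESeq2 this difference was called, at -1.11, -1.15 and -1.12 (adjusted p 0.0286 to 0.0475).

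Of the 6 inhibitors of signalling, 1 was higher and 2 were lower in FSClow than in EpCAM (16.7% and 33.3%). Beside 22.0% and 23.1% of all genes, the shares in that comparison were near the background. In FSChi against EpCAM 3 of the 6 (Dusp1, Socs3 and Ppp1r15a) were lower, a share above the 12.2% of all genes, and 0 were higher. Each of these 3 calls was lost in some fits that left out 1 library, and the share was not tested. Socs3, the feedback inhibitor of JAK and STAT signalling (Entrez gene 12702, chr11:117966079-117970336), had levels of 197, 109, 374, 251 and 205 CPM in EpCAM 1 to 5, 31.5, 61.1, 81.0, 84.7 and 105 in FSChi 1 to 5 and 1.61 to 62.7 in FSClow, with a median of 13.0. All eGFP-positive libraries were below all EpCAM libraries, and 7 of the 9 FSClow libraries were below 31.5 CPM, the lowest FSChi library. FSClow 8 (62.7 CPM) and FSClow 6 (35.1 CPM) were the exceptions. The log2 fold change was -3.57 ± 0.52 SE (adjusted p in edgeR = 9.65e-06) in FSClow against EpCAM and 1.93 ± 0.51 SE (adjusted p in edgeR = 0.00906) in FSChi against FSClow. FSChi against EpCAM gave -1.64 ± 0.60 SE (adjusted p in edgeR = 0.0492), a call kept without FSClow 1, 3, 4, 5, 6, 7 or 8 or EpCAM 2 and lost in 11 left-out fits (edgeR adjusted p 0.0515 to 0.105).

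The phosphatase genes Dusp1 and Dusp5, which encode enzymes that switch off MAP kinases, were called in different comparisons. Dusp5, whose product acts on nuclear ERK, was higher in FSClow (2.01 to 34.4 CPM, median 25.0) than in EpCAM (9.82, 3.09, 4.12, 2.96 and 1.51 CPM in EpCAM 1 to 5) by 2.39 ± 0.48 SE (adjusted p in edgeR = 0.000243), and overlapped through FSClow 7 alone. It was lower in FSChi (6.38 to 9.64 CPM) than in FSClow by -1.48 ± 0.46 SE (adjusted p in edgeR = 0.0212), a call lost without FSChi 4 or 5 (edgeR adjusted p 0.0592 to 0.061). Dusp1 was lower in FSChi (334, 97.2, 208, 348 and 426 CPM in FSChi 1 to 5) than in EpCAM (843, 615, 728, 717 and 1075 CPM in EpCAM 1 to 5) by -1.49 ± 0.48 SE (adjusted p in edgeR = 0.0245), without overlap, and this call was lost without FSChi 2 or 3 or EpCAM 5 (edgeR adjusted p 0.0518 to 0.0603). Its FSClow range, 95.4 to 1086 CPM, covered both groups. Ppp1r15a, which encodes GADD34, the phosphatase subunit that restores translation after stress, was lower in both eGFP-positive groups: 18.9 to 499 CPM in FSClow and 217 to 552 in FSChi against 567 to 1104 in EpCAM, without overlap. Its log2 fold changes were -1.37 ± 0.41 SE (adjusted p in edgeR = 0.00856) and -1.37 ± 0.49 SE (adjusted p in edgeR = 0.0418). The FSChi call was lost without FSChi 1, 2, 3 or 5 or EpCAM 1, 3 or 4 (edgeR adjusted p 0.0642 to 0.0938). Zfp36, which speeds decay of early mRNAs, and Nfkbia, the inhibitor of NF-kappaB, were not called with all libraries. Zfp36 ran from 18.1 to 189.9 CPM in FSClow, 23.3 to 76.2 in FSChi and 46.4 to 111 in EpCAM, and Nfkbia from 195 to 767, 207 to 395 and 245 to 428. Without FSClow 7, Zfp36 was lower in FSChi than in FSClow, -0.98 (edgeR adjusted p = 0.0451).

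Of the 6 heat shock genes, 1 was higher in FSClow than in EpCAM (16.7%, beside 22.0% of all genes). Lower there were 3 of the 6 (Hspb1, Hspa1a and Hspa1b), a share above the 23.1% of all genes that was not tested. In FSChi against EpCAM 1 was lower (16.7%, beside 12.2%). A share of 1 gene in 6 is near the background. Hspb1, which encodes the small heat shock protein HSP27 (Entrez gene 15507, chr5:135887919-135889563), was at 460.2, 294, 350.4, 275 and 648 CPM in EpCAM 1 to 5, 327, 36.2, 57.1, 157 and 141 in FSChi 1 to 5 and 3.62 to 44.5 in FSClow, with a median of 13.7. All FSClow libraries were below all EpCAM libraries, and the FSChi libraries lay between, with FSChi 1 inside the EpCAM range and FSChi 2 inside the FSClow range. Hspb1 was lower in FSClow than in EpCAM by a log2 fold change of -4.64 ± 0.52 SE (adjusted p in edgeR = 2.98e-07) and higher in FSChi than in FSClow by 3.15 ± 0.50 SE (adjusted p in edgeR = 9.47e-05). FSChi against EpCAM gave -1.49 ± 0.57 SE (adjusted p in edgeR = 0.0606), not called, and -1.53 (edgeR adjusted p = 0.0408) without FSClow 7. It was also called with RLE scaling, the authors' size factors and DESeq2, at -1.59, -1.64 and -1.60 (adjusted p 0.0145 to 0.0483).

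The inducible HSP70 genes Hspa1a and Hspa1b lie next to each other on chromosome 17 and are near-identical copies, so how reads were shared between them is uncertain. Hspa1a was at 190.1, 139, 153, 98.9 and 111 CPM in EpCAM 1 to 5 and 24.6 to 166 in FSClow, with a median of 69.9. FSClow 3 lay within the EpCAM range, and the other 8 FSClow libraries were below it. Its log2 fold change in FSClow against EpCAM was -0.96 ± 0.30 SE (adjusted p in edgeR = 0.0102) and that of Hspa1b -0.95 ± 0.30 SE (adjusted p in edgeR = 0.0115). Without FSClow 3, both were also higher in FSChi than in FSClow, by 0.85 (edgeR adjusted p = 0.0165) and 0.80 (edgeR adjusted p = 0.0237). Dnajb1, the HSP40 partner of HSP70, was lower in FSChi (90.0 to 181 CPM) than in EpCAM (175 to 441 CPM, overlapping through FSChi 1) by -1.09 ± 0.35 SE (adjusted p in edgeR = 0.0227), a call lost without FSChi 2 or 5 or EpCAM 1 (edgeR adjusted p 0.0505 to 0.0622). Hsp90aa1, the stress-inducible HSP90, was higher in FSClow (314 to 578 CPM) than in EpCAM (259 to 375 CPM) by 0.49 ± 0.18 SE (adjusted p in edgeR = 0.032), but this call held only in the fits without FSChi 2, FSClow 3, 7, 8 or 9 or EpCAM 2 or 5 and was lost in the other 12 that left out 1 library (edgeR adjusted p 0.0502 to 0.188). It was also lost with RLE scaling, at 0.30 (edgeR adjusted p = 0.2), with upper-quartile scaling (edgeR adjusted p = 0.101), with the authors' size factors, at 0.26 (edgeR adjusted p = 0.223), and in DESeq2 (adjusted p = 0.168). Hsph1, which encodes HSP105, was not called (FSClow 8.19 to 94.7 CPM, FSChi 21.1 to 56.2, EpCAM 26.4 to 67.6).

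Basal and secretory marker sums were, like Hspb1, Socs3, Sgk1 and Myc, lowest in FSClow and highest in EpCAM by group median, with FSChi between. Olfactory neuron, sustentacular and ionocyte sums had the same order by group median, and ciliated sums the reverse. The part of other cell types in the differences of these genes was not tested. In FSChi 1 to 5 the basal sums were 1770.0, 87.6, 31.0, 769.8 and 952 CPM and the secretory sums 7817, 443, 2319, 11737 and 13390.5 CPM. FSChi 1, highest for Hspb1, had the highest basal sum but a lower secretory sum than FSChi 4 and 5, and it had the lowest Socs3 level of the 5.

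The spread among libraries of a group was larger for these genes than for genes at large in FSClow. The median SD of log2(CPM + 1) over the 38 members was 1.07 in FSClow, beside 0.53 over all genes tested, while it was 0.54 beside 0.51 in FSChi and 0.53 beside 0.40 in EpCAM. The FSClow figure includes FSClow 7, and no test was made of it.

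Within the 9 FSClow libraries, the level of each of the 37 other members was set against that of Fos on the log2 scale, with two-sided exact permutation tests and Benjamini-Hochberg adjustment over the 37 relations. By Pearson's r, 17 members had an adjusted p under 0.05, all with positive r. Genes outside the members were not set against Fos, so the share of all genes that would pass is not known. The count of 17 therefore cannot be read as particular to the members. By rank (rho), Fosl1, Gadd45b, Atf3, Dusp5, Egr2 and Ppp1r15a of these were not under 0.05 (exact permutation, adjusted p 0.089 to 0.27). Egr1 was nearest to Fos (r = 0.96, exact permutation p = 3.9e-05, adjusted 0.00092; rho = 0.93, exact permutation p = 0.00075, adjusted 0.0069), followed by Jun (r = 0.95, exact permutation p = 5e-05, adjusted 0.00092; rho = 0.95, exact permutation p = 0.00035, adjusted 0.0065). Zfp36, Nfkbia, Dusp1 and Junb had r of 0.93, 0.92, 0.91 and 0.90 (exact permutation p 0.00012 to 0.00055, adjusted 0.0012 to 0.0029), and rho of 0.95, 0.92, 0.90 and 0.90 (exact permutation p 0.00035 to 0.002, adjusted 0.0065 to 0.011). Without FSClow 7 and FSClow 1, the 2 libraries farthest from the Fos median, r was 0.93 for Egr1, 0.90 for Jun, 0.91 for Zfp36, 0.83 for Nfkbia, 0.89 for Dusp1 and 0.90 for Junb. Among the rest of the 17 it was as low as 0.37 for Ppp1r15a, 0.41 for Dusp5 and 0.48 for Gadd45b, so those relations rested in large part on the 2 libraries. For Fosl1, Atf3 and Egr2 it fell from 0.73, 0.70 and 0.67 to 0.50, 0.51 and 0.54.

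For other members no relation to Fos was detected. Egr3 had r = 0.35 (exact permutation p = 0.4, adjusted 0.48) and rho = -0.17 (exact permutation p = 0.68, adjusted 0.76), and r = -0.57 without the 2 farthest libraries. For Fosb the value was 0.59 (exact permutation p = 0.056, adjusted 0.094; rho = 0.47, exact permutation p = 0.21, adjusted 0.33) and r was 0.02 without those 2, so the value over all 9 rested on them. FSClow 8 shows the difference in single values: its Fos level, 1551 CPM, was the second lowest of the 9, and its Egr3, 46.3 CPM, Fosl2, 51.4 CPM, and Csrnp1, 193 CPM, were the highest. The count of 17 fell to 7 without FSClow 7 and to 11 without FSClow 2. Fos was also related to the share of counts from mitochondrially encoded genes (r = 0.80, exact permutation p = 0.0092, adjusted 0.037 over 4 library measures; rho = 0.73, exact permutation p = 0.031; r = 0.77 without the 2 farthest libraries), but not detectably to total counts (r = -0.09, exact permutation p = 0.85, rho = 0.13, exact permutation p = 0.74). What part that share has in the relations among the genes was not tested.

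**Figure D5:**
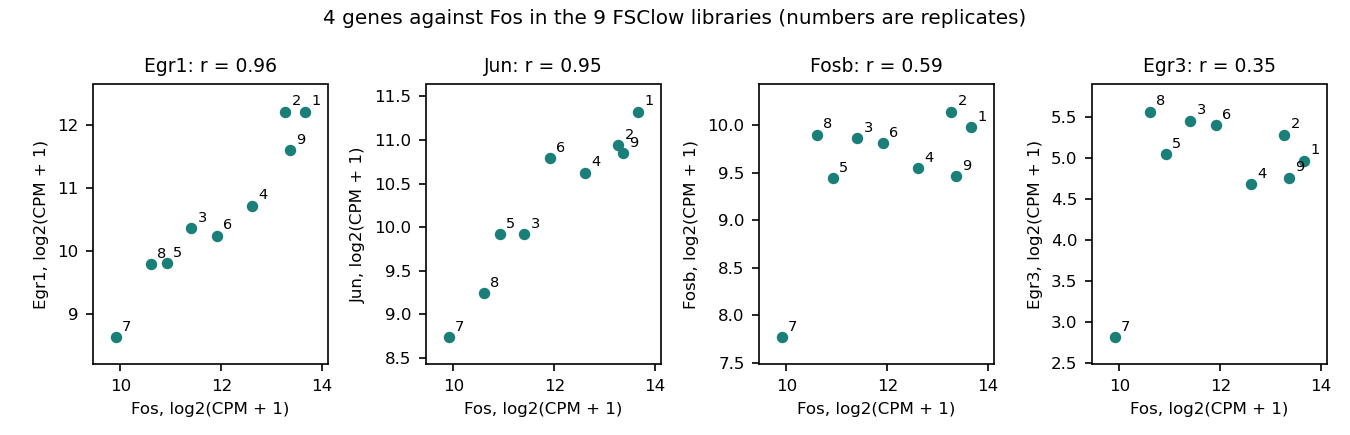
Log2(CPM + 1) of Egr1, Jun, Fosb and Egr3 (vertical axes) against that of Fos (horizontal axes) in the 9 FSClow libraries, numbered by replicate. Egr1 and Jun climb with Fos over all libraries (r = 0.96 and 0.95), while Fosb and Egr3 have r of 0.59 and 0.35 over all 9 and of 0.02 and -0.57 without FSClow 7 and FSClow 1.

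On the length-scaled measure TPM, which allows levels of different genes to be compared, Fos had the highest group median of the 38 in FSClow (3475), FSChi (1536, 4 files) and EpCAM (1855). In FSClow it was followed by Atf3 (2325), Junb (1223), Nr4a1 (842) and Ier2 (824). In EpCAM it was followed by Jun (1100.5), Junb (936), Hspb1 (840.1) and Atf3 (817). Hspb1 stood at rank 4 in EpCAM and 25 in FSClow (34.9 TPM), and Egr2 at rank 25 and 10 (23.3 and 478 TPM).

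Other genes of the same programmes were taken from 4 lists chosen for the pathways, and can be read against the shares of all genes called (22.0% and 23.1%, 13.5% and 12.2%, and 15.5% and 9.30%, higher and lower). Of 38 tested other early response and feedback genes, 5 were higher and 18 lower in FSClow against EpCAM, 3 higher and 9 lower in FSChi against EpCAM, and 6 higher and 2 lower in FSChi against FSClow. The median log2 fold changes were -0.80, -0.93 and -0.06. Plk2, a kinase gene induced by activity, was higher in FSClow than in EpCAM by 5.54 ± 0.38 SE (adjusted p in edgeR = 3.35e-11) and in FSChi by 4.57 ± 0.37 SE (adjusted p in edgeR = 1.41e-09). Bhlhe40, a circadian and early response repressor, was lower in FSClow than in EpCAM, -2.05 ± 0.29 SE (adjusted p in edgeR = 2.92e-06), as was Socs2, a relative of Socs3, -1.80 ± 0.26 SE (adjusted p in edgeR = 3.35e-06). Nfkbiz, a nuclear partner of NF-kappaB, was lower in FSChi than in EpCAM by -1.86 ± 0.28 SE (adjusted p in edgeR = 2.45e-05).

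Among 29 tested kinases and transcription factors that act upstream of early genes, 3 were higher and 3 lower in FSClow against EpCAM, 2 and 1 in FSChi against EpCAM, and 2 and 5 in FSChi against FSClow, with medians of 0.25, -0.08 and -0.28. Srf, whose product binds the CArG box, was higher than in EpCAM by 3.18 ± 0.43 SE (adjusted p in edgeR = 1.6e-06) in FSClow and by 2.11 ± 0.44 SE (adjusted p in edgeR = 0.00107) in FSChi. Map2k7, the gene of a kinase that activates JNK, was higher in FSClow, 1.38 ± 0.22 SE (adjusted p in edgeR = 1.73e-05), and Nfkb1 lower, -1.57 ± 0.32 SE (adjusted p in edgeR = 0.000241). Egfr, the EGF receptor gene, was lower in FSChi than in FSClow by -1.12 ± 0.20 SE (adjusted p in edgeR = 0.000233).

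Of 28 other heat shock and chaperone genes, 9 were higher and 5 lower in FSClow against EpCAM, 4 and 2 in FSChi against EpCAM, and 1 and 5 in FSChi against FSClow, with medians of 0.12, -0.01 and -0.14. Hspa4l, an HSP110 relative, was higher in FSClow by 1.21 ± 0.21 SE (adjusted p in edgeR = 3.88e-05), and Hspb8, another small heat shock gene, lower in FSChi than in EpCAM by -1.31 ± 0.25 SE (adjusted p in edgeR = 0.000415). Hsp90b1, an endoplasmic reticulum chaperone gene, was higher in FSClow than in EpCAM by 0.74 ± 0.17 SE (adjusted p in edgeR = 0.000686). Of 18 integrated and oxidative stress genes, 3 were higher and 9 lower in FSClow against EpCAM, 1 and 4 in FSChi against EpCAM, and 3 and 0 in FSChi against FSClow, with medians of -0.95, -0.90 and 0.01. Trib3, a pseudokinase gene induced by ATF4, was lower in FSClow than in EpCAM, -4.56 ± 0.52 SE (adjusted p in edgeR = 1.09e-07), and so were Nqo1, a quinone reductase gene under NRF2, -5.99 ± 0.89 SE (adjusted p in edgeR = 2.34e-05), and Srxn1, the sulfiredoxin gene, -3.18 ± 0.56 SE (adjusted p in edgeR = 4.75e-05). Nqo1 was higher in FSChi than in FSClow by 4.48 ± 0.87 SE (adjusted p in edgeR = 0.00099) and Srxn1 by 3.02 ± 0.57 SE (adjusted p in edgeR = 0.000337). Gclm, a glutathione synthesis gene, was lower than in EpCAM in FSClow, -2.19 ± 0.40 SE (adjusted p in edgeR = 7.78e-05), and in FSChi, -1.67 ± 0.48 SE (adjusted p in edgeR = 0.0119).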

How the data were processed

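The deposited count table held raw counts per Entrez gene for 19 libraries. A second deposited table held the authors' normalized signal per gene symbol. It was recognised as counts divided by a size factor, because 100% of its values were whole counts within a tolerance of 0.01 after multiplication by that factor. Single-library files held the RSEM expected count and the TPM per gene, per the file headers. The submitters' processing notes name STAR 2.4.2a, Picard 1.1073, RSEM 1.2.21, featureCounts, DESeq2 and mm10, without roles; whether counting used strand is not given in the sources used here.

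Counts were tested in edgeR 4.0.16 (quasi-likelihood, filter by group, TMM scaling, 1 fit of all 19 libraries, Benjamini-Hochberg over 13340 genes; called at an adjusted p under 0.05). Levels are TMM-scaled CPM, and log values use a pseudocount of 1. Adjusted p-values in the text come from edgeR unless DESeq2 1.42.0 or limma 3.58.1 is named; other tools were R 4.3.3, Python 3.11.15, pandas 2.3.3, numpy 2.4.6 and matplotlib 3.10.9. Alternatives were other scalings, filters, tools and libraries, rounded expected counts and log2 TPM. On simulated counts, 2-fold changes were recovered for 28.8% and 4-fold changes for 81.2% of changed genes in FSClow against EpCAM (13001 genes), 22.9% and 79.1% in FSChi against EpCAM (12957 genes) and 31.2% and 74.6% in FSChi against FSClow (12874 genes). False calls were 3.57%, 4.48% and 6.99% of the calls, the last above the 5% that the threshold sets. The simulation changed few genes, such as 66 by 2-fold and 69 by 4-fold in FSClow against EpCAM. In the data, 45.1%, 25.6% and 24.8% of all genes were called in the 3 comparisons. The simulated counts also held no library set apart like FSClow 7. These figures therefore do not give the recovery or the false calls of the results reported here. Same-numbered libraries of different groups correlated from -0.21 to 0.44. The numbers of FSChi 3, 4 and 5 and EpCAM 1 and 2 may be exchanged, so these values cannot decide whether libraries were paired. The main fit treated them as unpaired.

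The members and lists were chosen with earlier results of these data known. All 38 members are named, those called in any comparison with full statistics, and from each of 4 further lists (other early response and feedback genes, upstream signalling and transcription factors, other heat shock and chaperone genes, integrated and oxidative stress genes) up to 4 genes of smallest p; 1 gene that this rule selects is not reported here. Zero-count limits are 3 counts of the library and cover counting error only. Genome positions are those of RefSeq on GRCm38.p6 (mm10), counted from 1.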

Additional observations from a re-analysis of the deposited data

Results flagged for a closer look

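Of 114 sets of values (38 genes in 3 groups), 25 held 1 library far from the rest of its group by Dixon's criterion at the 95% level, which chance meets in about 1 set in 20. FSClow 7 was that library in 16 of the 25, each time as the lowest of the 9. It stood at 0 CPM for Fosl1 (group median 8.81), Nr4a2 (group median 121) and Nr4a3 (group median 32.1). Among early transcription factor genes it was far below the others for Fosb at 217 CPM (group median 898), Fosl2 at 1.61 CPM (group median 34.2), Atf3 at 41.5 CPM (group median 2406), Egr2 at 14.9 CPM (group median 747), Egr3 at 6.04 CPM (group median 31.9), Nr4a1 at 7.25 CPM (group median 1177), Klf6 at 68.8 CPM (group median 356) and Csrnp1 at 3.22 CPM (group median 105). Among other early response and inhibitor genes it was far below for Ier3 at 5.23 CPM (group median 57.5), Btg2 at 345 CPM (group median 1459), Gadd45b at 15.3 CPM (group median 98.0), Dusp5 at 2.01 CPM (group median 25.0) and Ppp1r15a at 18.9 CPM (group median 367).

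The other 9 were spread over 5 libraries. FSChi 2, the library with the fewest counts, was lowest of its group for Junb at 468 CPM (group median 845), Nr4a3 at 1.61 CPM (group median 7.12) and Myc at 0.804 CPM (group median 7.53). FSChi 5 was lowest for Fosb at 151 CPM (group median 235), Fosl2 at 7.09 CPM (group median 19.5) and Gadd45b at 37.9 CPM (group median 77.1). FSChi 1 was lowest for Hspa1b at 48.2 CPM (group median 77.3) and FSChi 4 for Rhob at 2.05 CPM (group median 3.90). EpCAM 1 was highest of its group for Maff at 7.46 CPM (group median 3.09).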

How the results depend on the processing

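No log2 fold change of a member changed sign where it was called: of its values under the alternatives, 3547 kept their side of the threshold, 242 lost it, 86 gained it and 0 reversed. Of 42 calls, 29 held in all fits that left out 1 library.

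Leaving out 1 library gave 11 to 16 members higher and 8 to 10 lower in FSClow against EpCAM. It gave 2 to 3 and 3 to 10 in FSChi against EpCAM, and 2 to 4 and 3 to 17 in FSChi against FSClow. Over all genes these fits gave 2295 to 3117 higher and 2972 to 3533 lower in FSClow against EpCAM. In FSChi against EpCAM they gave 1384 to 1882 and 1318 to 1858 of all genes. In FSChi against FSClow they gave 1836 to 2229 and 798 to 1350. Members related to Fos by Pearson's r numbered 7 to 22, with no share over all genes computed. With only columns matching their own file, which left FSChi with 2 libraries and EpCAM with 3, 8 members were higher in FSClow against EpCAM, 1 was higher and 1 lower in FSChi against EpCAM, and 1 was higher and 1 lower in FSChi against FSClow. Over all genes this fit gave 2011 higher and 3091 lower, 1048 and 790, and 1331 and 423. On log2(TPM + 1) in limma the counts were 5 higher and 4 lower, 1 and 4, and 0 and 3, and on log2(TPM + 0.1) they were 4 and 4, 1 and 2, and 0 and 0. Over all genes the first gave 922 and 2176, 263 and 1854, and 318 and 648. The second gave 519 and 1884, 187 and 1154, and 168 and 157. Both include a nearly empty file of FSChi 3 (6803 counts). Without it, log2(TPM + 1) gave 11 and 7, 2 and 7, and 2 and 6. Over all genes it then gave 2540 and 2984, 1150 and 1691, and 1119 and 832. With RSEM expected counts 3 members were lower in FSChi against FSClow (810 of all genes). Without that file, 2 were (731 of all genes), and 4 were lower in FSChi against EpCAM (1366 of all genes). With no filter, 5 were lower in FSChi against EpCAM (1870 of all genes). With only the 2 groups compared 5 were lower in FSChi against FSClow (927 of all genes). Why the counts differ between these settings was not tested.

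With the authors' size factors Jun, Klf6, Dusp1 and Dnajb1 were also lower in FSClow than in EpCAM, at log2 fold changes of -0.78, -0.98, -0.99 and -0.77 (edgeR adjusted p 0.0119 to 0.0471), while Fos (0.0926) and Hsp90aa1 (0.223) were no longer called. In FSChi against EpCAM, Ier3, Rhob and Hspb1 were also lower (0.0339, 0.0404 and 0.0363), as with RLE scaling and DESeq2, and Jun lost its call in FSChi against FSClow (0.0504).

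A replicate block over replicates 1 to 5, which leaves out FSClow 6, 7, 8 and 9, gave 16 higher and 9 lower, 2 and 10, and 2 and 14. Over all genes it gave 1982 and 3169, 1499 and 1752, and 1545 and 425. The same libraries without the block gave 15 and 8, 3 and 10, and 2 and 14. Over all genes they gave 2107 and 3141, 1603 and 1688, and 1756 and 489. By library, 4 of 15 correlated best with their own number, which cannot decide pairing while some numbers may be exchanged. The fits without that block and without the nearly empty file were chosen after seeing the data. Depth limits the genes of few counts, such as Maff, Klf2 and Egr3 in EpCAM.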
